A study of Mus musculus with 20 samples.

Results

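Peroxisomes are small organelles that shorten and break down lipids which mitochondria handle poorly, such as very long chain and branched fatty acids, and that carry out the first steps of ether lipid synthesis. Their enzymes are made in the cytosol and imported by peroxins, the proteins encoded by the Pex genes, while ABC transporters of the D family bring in fatty acids as CoA esters. In skeletal muscle they are sparse, and the shortened acyl chains they release are passed to mitochondria as carnitine esters. Their genes include classical targets of the nuclear receptor PPARalpha, which PGC-1alpha coactivates and NCoR1 restrains.

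The 32 peroxisome genes described here were chosen by name for their roles in peroxisome biogenesis or oxidation, under a rule that sets no threshold on a measured value. Earlier results of these data were known when they were chosen, so the choice was not blind to the data. All 32 were found among 19938 genes, each with a single probe set. They comprise 14 Pex genes, 15 genes of D-family ABC transporters and of oxidation or related enzymes, and 3 genes of ether lipid synthesis.

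RNA came from the gastrocnemius, a calf muscle, of adult male C57BL/6 mice and was read on Affymetrix GeneChip Gene 1.0 ST arrays, 1 array per sample and 5 per group. The NCoR1-MKO group lacked the corepressor NCoR1 in muscle and was set against its controls, CON. The PGC-1alpha-mTg group carried a muscle-specific PGC-1alpha transgene and was set against wild type mice, WT. The genotype of CON, the promoters that drove the deletion and the transgene, and the ages beyond adult are not given in the sources used here. Values are RMA expression on the log2 scale, in which a difference of 1 is a 2-fold change. All changes are log2 differences from the cohort's own controls ± SE, with 5 arrays per group. A gene rose or fell where limma's adjusted p over all 19938 genes was under 0.05.

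Ncor1 itself was not analysed here, so the knockout label was not checked against its own transcript. The transgene could be: Ppargc1a, the PGC-1alpha gene, was higher in PGC-1alpha-mTg by 1.83 ± 0.07 (limma adjusted p = 9.88e-15). The 9 skeletal muscle markers averaged 12.91 to 13.57 on every array, as the tissue label says. The 5 liver markers averaged 5.97 to 6.71, where the median of all gene values was 6.41. Their group means ran from 4.39 to 4.53 for Ttr and from 8.97 to 9.49 for Cyp2e1, so the average does not show that liver markers were absent. Within PGC-1alpha-mTg, arrays 2 and 3 resembled each other more (r = 0.998 across genes) than either resembled array 5 (r = 0.993 and 0.992), and calls that need arrays 2 and 3 are named below. The labels do not state whether the samples of a group were separate mice. The p-values thus rest on the spread among these arrays alone, part of which may be technical.

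More peroxisome genes changed in PGC-1alpha-mTg than in NCoR1-MKO, as did more of all genes. The estimated change, taken without its sign, was the larger in PGC-1alpha-mTg for 23 of the 32. That count was not made over all genes. In PGC-1alpha-mTg, 13 of the 32 rose and 2 fell. Over all genes, 11.9 percent rose and 16.1 percent fell in this comparison, against 40.6 percent and 6.25 percent of the peroxisome genes. In NCoR1-MKO, 3 rose and 1 fell, beside 1.31 percent and 1.32 percent of all genes. Only Pex11a and Hsd17b4 rose in both models, 2 genes were called in the knockout alone, 13 in the transgenic mice alone and 15 in neither. The median change of the 32 genes was 0.094 in PGC-1alpha-mTg, where that of all genes was 0.018, and 0.012 in NCoR1-MKO, where that of all genes was 0.0014. By mean level, 30 of the 32 lay above the median of all genes, which include dim ones. The part of expression level in the shares called was not tested.

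**Figure D1:**
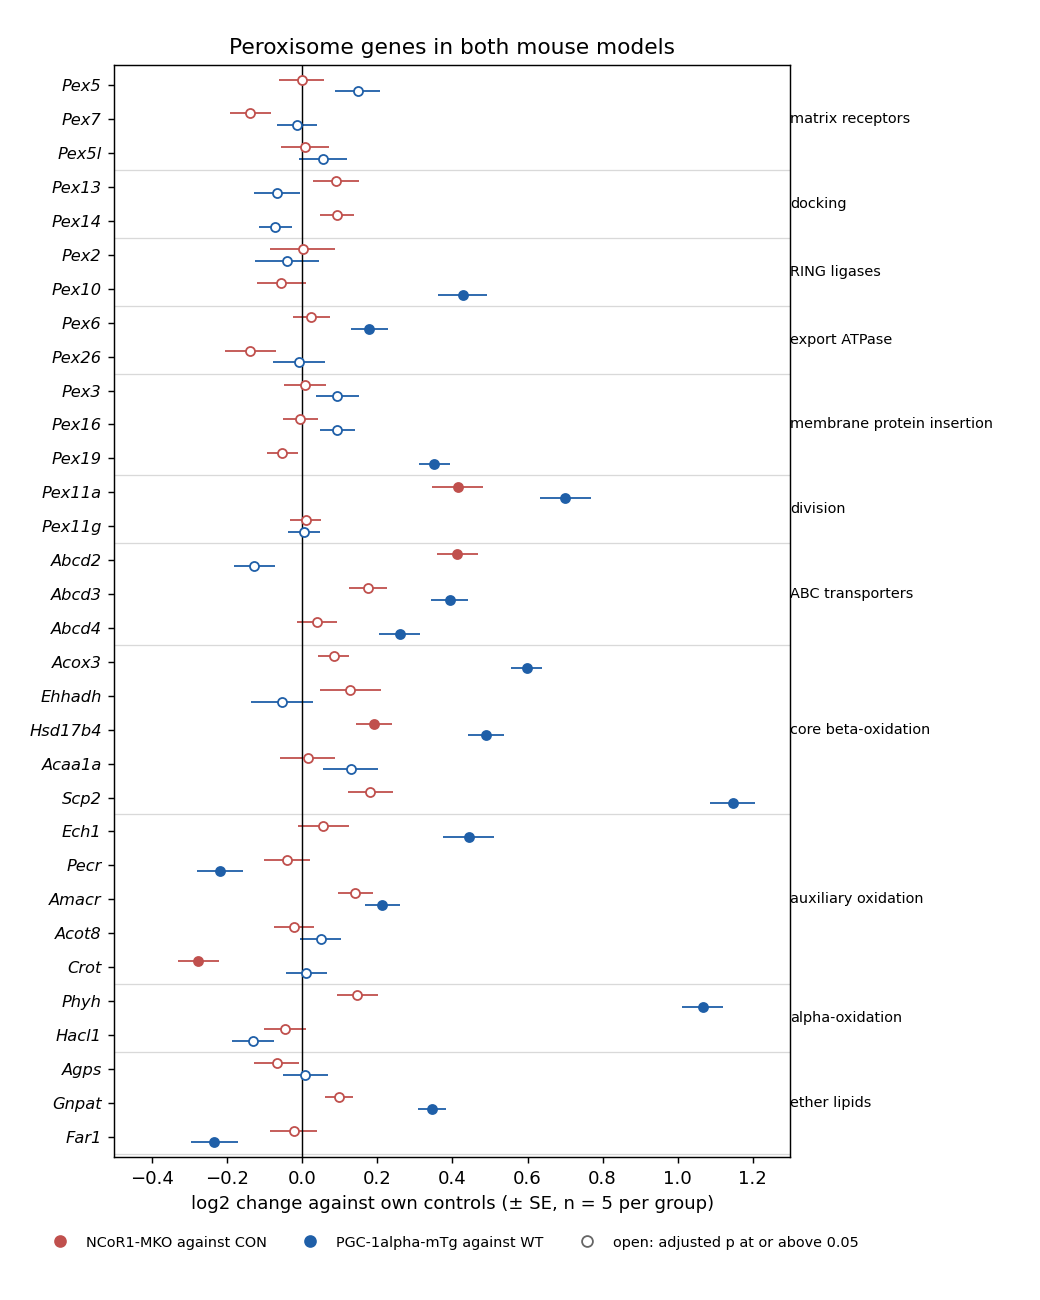
Log2 change against the cohort's own controls (horizontal axis, ± SE, n = 5 arrays per group) for the 32 peroxisome genes, ordered by role, in NCoR1-MKO (red) and PGC-1alpha-mTg (blue). Filled points have a limma adjusted p under 0.05. The blue points of Scp2 (1.15) and Phyh (1.07) lie farthest to the right, and Pex11a and Abcd2 (0.41 each) are the farthest red ones.

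The separation of single arrays gave counts of the same order. In PGC-1alpha-mTg all 5 arrays lay above all 5 WT arrays for 12 of the 32 genes and below them for 1, against 8.72 percent and 11.2 percent of all genes. In NCoR1-MKO all 5 arrays lay above CON for 4 genes and below for 1, against 2.21 percent and 1.96 percent of all genes. The genes above were Pex11a, Abcd2, Abcd3 and Gnpat, of which Abcd3 (adjusted p = 0.0664) and Gnpat (adjusted p = 0.235, limma) did not pass the test.

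**Figure D2:**
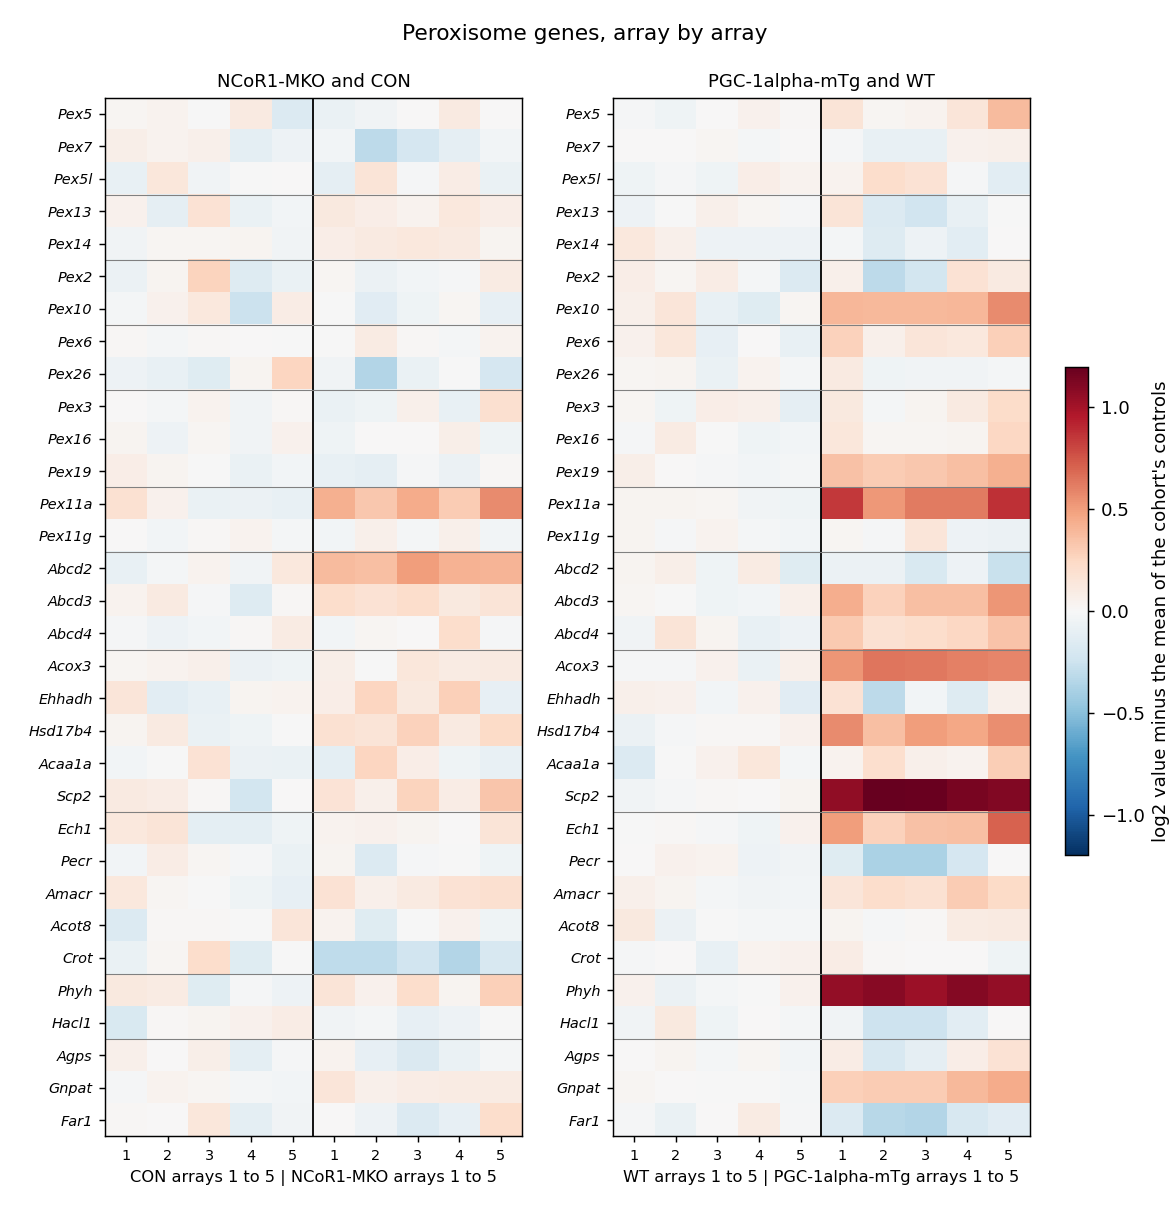
Each cell is the log2 value of a gene on an array minus the mean of that cohort's controls, for CON and NCoR1-MKO (left) and WT and PGC-1alpha-mTg (right); lines part the roles. Scp2 and Phyh are raised by about the same amount on all 5 transgenic arrays, while in the knockout Abcd2 and Pex11a (0.41 each) have the largest mean rise and Crot (-0.28) the largest mean fall.

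Promoter sequences are shown for the 3 members that rose most in PGC-1alpha-mTg and for Pex11g, the relative of Pex11a. Each is the 250 bases before the annotated start in GRCm38.p6, from RefSeq, written 5′ to 3′ on the gene's strand. Capitals mark AGGTCA, the half-site bound by PPAR and estrogen-related receptors. They are chr4:108118548-108118797 (Scp2, minus strand), chr2:4918746-4918995 (Phyh, plus strand), chr7:79743132-79743381 (Pex11a, minus strand) and chr8:3467649-3467898 (Pex11g, minus strand).
Scp2: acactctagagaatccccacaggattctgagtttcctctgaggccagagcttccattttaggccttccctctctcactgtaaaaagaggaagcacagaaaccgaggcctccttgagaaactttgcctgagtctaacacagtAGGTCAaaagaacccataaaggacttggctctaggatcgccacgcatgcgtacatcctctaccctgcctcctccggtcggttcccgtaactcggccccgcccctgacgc
Phyh: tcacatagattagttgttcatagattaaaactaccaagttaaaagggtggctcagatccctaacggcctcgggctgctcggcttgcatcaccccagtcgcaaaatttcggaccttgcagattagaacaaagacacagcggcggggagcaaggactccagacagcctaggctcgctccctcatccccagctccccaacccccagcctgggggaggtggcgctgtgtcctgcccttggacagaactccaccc
Pex11a: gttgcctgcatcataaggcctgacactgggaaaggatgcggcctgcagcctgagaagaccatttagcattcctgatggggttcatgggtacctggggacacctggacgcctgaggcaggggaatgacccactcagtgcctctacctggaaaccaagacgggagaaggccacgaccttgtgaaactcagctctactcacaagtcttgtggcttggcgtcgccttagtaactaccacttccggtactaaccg
Pex11g: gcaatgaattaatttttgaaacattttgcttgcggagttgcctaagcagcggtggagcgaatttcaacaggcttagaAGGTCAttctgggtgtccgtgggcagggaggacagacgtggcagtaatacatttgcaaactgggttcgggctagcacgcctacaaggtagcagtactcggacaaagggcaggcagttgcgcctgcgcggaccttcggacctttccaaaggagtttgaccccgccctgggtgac
The table held 29 such windows for 25 of the 32 genes. AGGTCA, searched on both strands, was found in 2 of the 29 windows, those of Scp2 (104 to 109 bases before the start) and Pex11g (168 to 173 bases before it), and in 14.0 percent of all 32851 windows. Scp2 rose most, and Pex11g did not pass in either model. The part of the half-site in the changes was not tested. The PPAR-type direct repeat of AGGTCA with a single base between its copies and the extended half-site TNAAGGTCA of the estrogen-related receptors, both of which contain AGGTCA, were in none of the 29 windows and in 0.0335 percent and 1.14 percent of all windows. At such shares few or no matches would be found in 29 windows of any genes. Only exact matches within the 250 bases were searched, so imperfect sites and sites farther away would be missed.

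Core beta-oxidation held the gene with the largest rise. Scp2, whose product includes the thiolase that ends a round of branched-chain oxidation, rose most of the 32. It read 7.30, 7.33, 7.36, 7.35 and 7.37 in WT and 8.41, 8.57, 8.53, 8.48 and 8.46 in PGC-1alpha-mTg. No transgenic array came near a WT array, and the change was 1.15 ± 0.06, or 2.21-fold (limma adjusted p = 1.89e-12). Scp2 also encodes a small sterol carrier protein from a separate start, which a single probe set does not tell apart. In the other cohort Scp2 read 7.54, 7.53, 7.44, 7.22 and 7.44 in CON and 7.60, 7.49, 7.70, 7.52 and 7.77 in NCoR1-MKO. Those groups overlapped, and the change of 0.18 ± 0.06 did not pass (adjusted p = 0.126, limma).

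Acox3, the oxidase that starts oxidation of branched acyl-CoAs, rose by 0.60 ± 0.04 in PGC-1alpha-mTg, or 1.51-fold (limma adjusted p = 1.49e-10). It read 7.72, 7.72, 7.79, 7.66 and 7.79 in WT and 8.27, 8.38, 8.37, 8.34 and 8.32 in the transgenic mice, with no overlap. In the knockout it stood at 0.08 ± 0.04 (limma adjusted p = 0.438), with CON from 7.97 to 8.09 and NCoR1-MKO from 8.04 to 8.18. Hsd17b4, the bifunctional protein that hydrates and dehydrogenates most peroxisomal substrates, rose in both models. Its values were 9.02, 9.08, 9.10, 9.11 and 9.14 in WT against 9.66, 9.45, 9.59, 9.55 and 9.64 in PGC-1alpha-mTg, a change of 0.49 ± 0.05 (limma adjusted p = 4.08e-08). In the knockout cohort they were 9.12, 9.20, 9.01, 9.04 and 9.09 against 9.28, 9.25, 9.37, 9.20 and 9.32, a change of 0.19 ± 0.05 (limma adjusted p = 0.0330). The knockout groups overlapped slightly, the lowest knockout array lying just under the highest control array, and the call was not firm. Leaving out any of 6 arrays, CON 3, 4 and 5 and NCoR1-MKO 1, 3 and 5, ended it (limma adjusted p at most 0.105), as did fitting the 10 arrays of the comparison alone (0.0739) and centring each array on its median (0.0784).

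The other core genes did not pass in either model. Ehhadh, the second bifunctional enzyme and a textbook PPARalpha target, stood at -0.05 ± 0.08 in PGC-1alpha-mTg, with a 95 percent interval from -0.22 to 0.12, and at 0.13 ± 0.08 in NCoR1-MKO. Acaa1a, a straight-chain thiolase, stood at 0.13 ± 0.07 and 0.015 ± 0.07, in the same order.

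Alpha-oxidation, which removes a single carbon from phytanic acid and other methyl-branched acids, split between its enzymes. Phyh, the hydroxylase of the first step, read 10.58, 10.46, 10.50, 10.53 and 10.58 in WT and 11.59, 11.62, 11.55, 11.64 and 11.59 in PGC-1alpha-mTg. It rose by 1.07 ± 0.05, or 2.09-fold (limma adjusted p = 1.41e-12), and the 5 transgenic arrays lay close together, far above WT. In the knockout cohort it read 10.79, 10.78, 10.53, 10.67 and 10.62 against 10.84, 10.73, 10.89, 10.71 and 10.96, and the change of 0.15 ± 0.05 did not pass (adjusted p = 0.20, limma). Hacl1, the lyase that cuts the hydroxylated acid, stood at -0.13 ± 0.06 in PGC-1alpha-mTg (adjusted p = 0.0877, limma; 0.0263 without PGC-1alpha-mTg 5, when it was called lower) and at -0.05 ± 0.06 in NCoR1-MKO. Scp2 and Phyh were the only members to change by 2-fold or more, and none did so in the knockout.

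Among the auxiliary enzymes, Ech1, which shifts double bonds of unsaturated chains into place and is found in mitochondria as well, rose in PGC-1alpha-mTg. It read 10.68, 10.71, 10.68, 10.64 and 10.74 in WT and 11.19, 10.97, 11.04, 11.05 and 11.40 in the transgenic mice, a change of 0.44 ± 0.07 (limma adjusted p = 2.46e-05). The groups did not overlap, and transgenic array 5 was the highest. Amacr, the racemase that turns branched acyl-CoAs into the form the oxidase accepts, rose by 0.21 ± 0.05 (limma adjusted p = 0.000971), with WT from 8.39 to 8.49 and PGC-1alpha-mTg from 8.57 to 8.73. In the knockout Ech1 stood at 0.06 ± 0.07 and Amacr at 0.14 ± 0.05. Amacr passed there only without CON 1 (change of 0.17, adjusted p = 0.0417, limma).

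Pecr, a peroxisomal trans-2-enoyl-CoA reductase that acts in chain elongation, was 1 of 2 genes that fell. Its values were 8.37, 8.41, 8.40, 8.30 and 8.32 in WT and 8.21, 7.99, 7.98, 8.16 and 8.37 in PGC-1alpha-mTg. The groups overlapped through transgenic array 5, and the change was -0.22 ± 0.06 (limma adjusted p = 0.00824). Without transgenic arrays 2 and 3 together it was -0.11 and did not pass (adjusted p = 0.171, limma).

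Crot, the octanoyltransferase that loads shortened chains onto carnitine for export to mitochondria, was the sole member to fall in the knockout. It read 9.50, 9.61, 9.79, 9.43 and 9.58 in CON and 9.28, 9.28, 9.35, 9.23 and 9.39 in NCoR1-MKO. Every knockout array lay below every control array, and the change was -0.28 ± 0.05 (limma adjusted p = 0.00460), which passed whichever array was left out. In PGC-1alpha-mTg Crot stood at 0.010 ± 0.05 (adjusted p = 0.916, limma), with a 95 percent interval from -0.10 to 0.12. Acot8, a thioesterase that frees acids from CoA, passed in neither model, at -0.02 ± 0.05 in the knockout and 0.05 ± 0.05 in the transgenic mice.

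The ABC transporters differed from each other. Abcd2, which carries very long chain acyl-CoAs, rose in the knockout, from 10.18, 10.24, 10.31, 10.22 and 10.39 in CON to 10.65, 10.63, 10.77, 10.69 and 10.67 in NCoR1-MKO. The groups did not overlap, and the change of 0.41 ± 0.05, or 1.33-fold, had the smallest p of the 32 in that comparison (limma adjusted p = 5.53e-05). In the transgenic cohort it pointed the other way, at -0.13 ± 0.05 (adjusted p = 0.0879, limma), with 9.93, 9.97, 9.85, 10.002 and 9.76 in WT and 9.83, 9.84, 9.72, 9.84 and 9.64 in PGC-1alpha-mTg. These last groups overlapped, and the change passed there without WT 5 (adjusted p = 0.0299, limma).

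Abcd3, the abundant peroxisomal membrane protein PMP70, read 9.05, 9.02, 8.98, 8.99 and 9.09 in WT and 9.46, 9.30, 9.39, 9.38 and 9.55 in PGC-1alpha-mTg. It rose by 0.39 ± 0.05 (limma adjusted p = 1.86e-06), and no array of one group reached the other. In the knockout it stood at 0.17 ± 0.05, with CON from 8.95 to 9.22 and NCoR1-MKO from 9.23 to 9.32, and the test was not passed (limma adjusted p = 0.0664). It was passed without CON 2 or PGC-1alpha-mTg 5 (from 0.0395), and also with quantile normalization, without the dimmest 40 percent of genes and with a trended, robust prior (from 0.0152). Abcd4, a relative that works in lysosomal cobalamin handling, rose by 0.26 ± 0.05 in PGC-1alpha-mTg (limma adjusted p = 0.000730) and stood at 0.04 ± 0.05 in NCoR1-MKO.

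**Figure D3:**
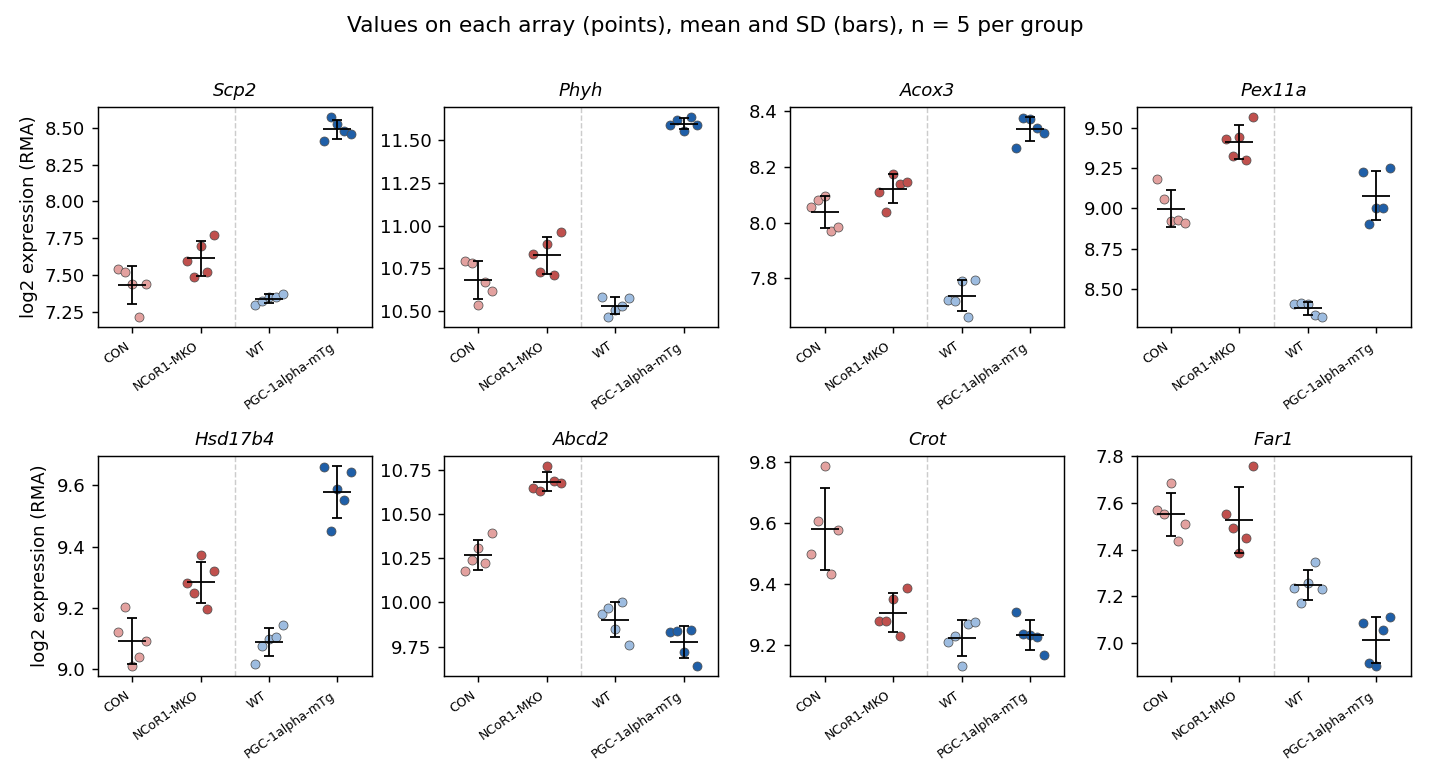
Log2 expression on each array (points) with the mean and SD of the group (bars, n = 5) for 8 genes; each panel has its own vertical axis, and the dashed line parts the cohorts. Scp2, Phyh and Acox3 are separated in the transgenic cohort and overlap in the knockout cohort, Abcd2 and Crot are separated in the knockout cohort alone, and Pex11a in both.

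Of the 14 Pex genes, 4 rose in PGC-1alpha-mTg and 1 in NCoR1-MKO, and none fell. Of the 15 transporter and enzyme genes, 8 rose and 1 fell in PGC-1alpha-mTg, and 2 rose and 1 fell in NCoR1-MKO. Not all of the 15 act in fatty acid entry or oxidation. Abcd4, of lysosomal cobalamin handling, was among the 8, and Pecr, of chain elongation, was the gene that fell in PGC-1alpha-mTg. The rises in PGC-1alpha-mTg made up 28.6 percent of the 14 and 53.3 percent of the 15, where 11.9 percent of all genes rose and 16.1 percent fell. In NCoR1-MKO 1.31 percent of all genes rose and 1.32 percent fell. The medians of the 14 and the 15 genes were 0.075 and 0.21 in the transgenic mice. After quantile normalization across the 20 arrays 7 Pex genes were called higher in PGC-1alpha-mTg, Pex5, Pex3 and Pex16 being added.

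Pex11a, a membrane protein that elongates peroxisomes before they divide and whose gene is induced by PPARalpha agonists, rose in both models. In the knockout cohort it read 9.18, 9.05, 8.92, 8.93 and 8.91 in CON and 9.43, 9.33, 9.44, 9.30 and 9.57 in NCoR1-MKO, a change of 0.41 ± 0.07, or 1.33-fold (limma adjusted p = 0.000772). In the other cohort it read 8.41, 8.41, 8.40, 8.34 and 8.32 in WT and 9.22, 8.90, 9.005, 9.004 and 9.25 in PGC-1alpha-mTg, a change of 0.70 ± 0.07, or 1.62-fold (limma adjusted p = 3.38e-08). Neither pair of groups overlapped. The highest CON array, CON 1, and the highest knockout array, NCoR1-MKO 5, were also those with the highest mean of 7 adipocyte markers, 8.48 and 8.40. This was not particular to adipocyte markers. The same arrays were highest in their groups for macrophage (7.80 and 8.13), blood (8.03 and 7.44) and liver markers (6.39 and 6.41). The part of any such cells was not tested. The Pex11a change was 0.46 without CON 1 and 0.38 without NCoR1-MKO 5, and both passed. Its relative Pex11g stood at 0.0089 ± 0.04 and 0.0043 ± 0.04.

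Pex10, a ring-finger ligase that marks the import receptor for recycling, rose in PGC-1alpha-mTg. It read 8.41, 8.49, 8.26, 8.20 and 8.37 in WT and 8.74, 8.73, 8.73, 8.74 and 8.91 in the transgenic mice, a change of 0.43 ± 0.07 (limma adjusted p = 2.58e-05). Its partner Pex2 stood at -0.04 ± 0.09 there, and in the knockout the pair stood at -0.06 ± 0.07 and 0.0012 ± 0.09. Pex19, the cytosolic chaperone that delivers membrane proteins, rose from 10.11, 10.05, 10.03, 10.01 and 10.02 in WT to 10.39, 10.35, 10.37, 10.41 and 10.47 in PGC-1alpha-mTg, by 0.35 ± 0.04 (limma adjusted p = 5.21e-07). Pex3, its docking site in the membrane, and Pex16 stood at 0.09 each, and neither passed. In the knockout Pex19, Pex3 and Pex16 lay between -0.05 and 0.0063.

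Pex6, an ATPase that pulls the receptor back out of the membrane, rose by 0.18 ± 0.05 in PGC-1alpha-mTg (limma adjusted p = 0.00860), although WT, from 7.38 to 7.61, overlapped the transgenic range of 7.54 to 7.77. Its membrane anchor Pex26 stood at -0.0096 ± 0.07 there and -0.14 ± 0.07 in NCoR1-MKO. The receptors and docking proteins were called in neither model. Pex5, the receptor for most matrix enzymes, read 7.38, 7.34, 7.40, 7.44 and 7.41 in WT and 7.55, 7.42, 7.44, 7.54 and 7.78 in PGC-1alpha-mTg, a change of 0.15 ± 0.06 (adjusted p = 0.0721, limma). It was called without transgenic array 2 or 3 (adjusted p from 0.0362, limma). Pex7, the receptor for enzymes such as Phyh, stood at -0.14 ± 0.05 in the knockout and -0.01 ± 0.05 in the transgenic mice, and Pex5l, a Pex5 relative known from neuronal channels, at 0.0077 ± 0.06 and 0.06 ± 0.06. Of the docking pair, Pex14 read 7.99, 8.05, 8.05, 8.06 and 7.98 in CON and 8.11, 8.14, 8.15, 8.14 and 8.06 in NCoR1-MKO, at 0.09 ± 0.04 (adjusted p = 0.420, limma), and Pex13 stood at 0.09 ± 0.06.

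The 3 ether lipid genes went 3 ways in PGC-1alpha-mTg. Gnpat, the acyltransferase that opens the pathway, rose from 10.45, 10.43, 10.42, 10.43 and 10.41 in WT to 10.71, 10.74, 10.73, 10.82 and 10.88, by 0.35 ± 0.04 (limma adjusted p = 1.74e-07). Agps, the synthase that forms the ether bond, stood at 0.0081 ± 0.06 (adjusted p = 0.942, limma). Far1, the reductase that supplies the fatty alcohol, fell from 7.24, 7.17, 7.26, 7.35 and 7.23 in WT to 7.09, 6.92, 6.90, 7.06 and 7.11, by 0.23 ± 0.06 (limma adjusted p = 0.00697). All 5 transgenic arrays lay below WT, but without arrays 2 and 3 together the change was -0.16 and did not pass (adjusted p = 0.107, limma). In the knockout the genes stood at 0.10 ± 0.04, -0.07 ± 0.06 and -0.02 ± 0.06.

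The difference between the models was tested for each gene as the effect in NCoR1-MKO minus the effect in PGC-1alpha-mTg. It was above 0 for 1 of the 32 and below 0 for 11, beside 8.5 percent and 6.66 percent of all genes. Scp2 (-0.96 ± 0.08, adjusted p = 3.72e-08) and Phyh (-0.92 ± 0.08, adjusted p = 1.90e-08, limma) differed most. Abcd2 was the gene above 0, at 0.54 ± 0.08 (limma adjusted p = 2.40e-05). Acox3, Pex10, Pex19, Ech1, Hsd17b4 and Gnpat lay below 0 as well, between -0.51 and -0.25. So did Crot, at -0.29 ± 0.08 (limma adjusted p = 0.0124), the one gene of these that fell in the knockout. Pex11a (-0.29 ± 0.10, adjusted p = 0.0474) and Abcd3 (-0.22 ± 0.07, adjusted p = 0.0394, limma) passed only narrowly. Their calls were lost without CON 1 or 2, NCoR1-MKO 2 or 4, WT 1, 2, 3 or 4 or PGC-1alpha-mTg 1 or 5. That of Pex11a also failed when NCoR1-MKO 1, NCoR1-MKO 3 or WT 5 was left out (highest adjusted p 0.0973), and that of Abcd3 when CON 5 or NCoR1-MKO 5 was (highest adjusted p 0.0796, limma). In the other direction, Abcd4 (-0.22 ± 0.08, adjusted p = 0.0568, limma) was called without NCoR1-MKO 4, WT 2 or PGC-1alpha-mTg 2, and Pex14 (0.16) and Pecr (0.18) without PGC-1alpha-mTg 5.

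Of 60 other peroxisome genes on a list drawn up for the organelle, also with earlier results of these data known, 51 were measured. In PGC-1alpha-mTg 20 rose and 5 fell, or 39.2 percent and 9.80 percent, beside 11.9 percent and 16.1 percent of all genes. The share of falls was thus below that of all genes. The largest rises were those of Nudt7, which hydrolyses CoA in peroxisomes (1.04 ± 0.07), the epoxide hydrolase gene Ephx2 (0.90 ± 0.08), Mavs, an antiviral adaptor of peroxisomes and mitochondria (0.80 ± 0.05), the glutathione transferase gene Gstk1 (0.74 ± 0.04) and the acyl-CoA dehydrogenase gene Acad11 (0.73 ± 0.06). Gdap1, a tail-anchored fission factor of both organelles, fell by 1.40 ± 0.14 (limma adjusted p = 7.41e-08), the largest change of any peroxisome gene measured. The other falls were those of Trim37 (-0.23), Ide (-0.20), Pnpla8 (-0.18) and Nudt12 (-0.15). The count of falls was 3 without WT 2 or PGC-1alpha-mTg 3, 2 without PGC-1alpha-mTg 2, and 1 without PGC-1alpha-mTg 2 and 3 together, when only Gdap1 of those named passed. In NCoR1-MKO limma called none of the 51, beside 1.31 percent of all genes called higher and 1.32 percent lower. Of the 51, 4 had an unadjusted p under 0.05, all higher, where 1313 of all 19938 genes had it higher and 1043 lower. Without PGC-1alpha-mTg 5, 1 of the 51 was called higher.

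Mitochondrial beta-oxidation genes give a measure of scale. All 16 that were measured rose in PGC-1alpha-mTg, at a median of 0.65, against 13 of 32 and 0.094 for the peroxisome genes. In NCoR1-MKO 7 of the 16 rose, at a median of 0.19, or 4 of them when CON 3, CON 4, NCoR1-MKO 3 or NCoR1-MKO 5 was left out. With the 10 arrays of that comparison alone 3 rose, and 13 with a trended, robust prior. Of all genes, 11.9 percent rose in PGC-1alpha-mTg and 1.31 percent in NCoR1-MKO.

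**Figure D4:**
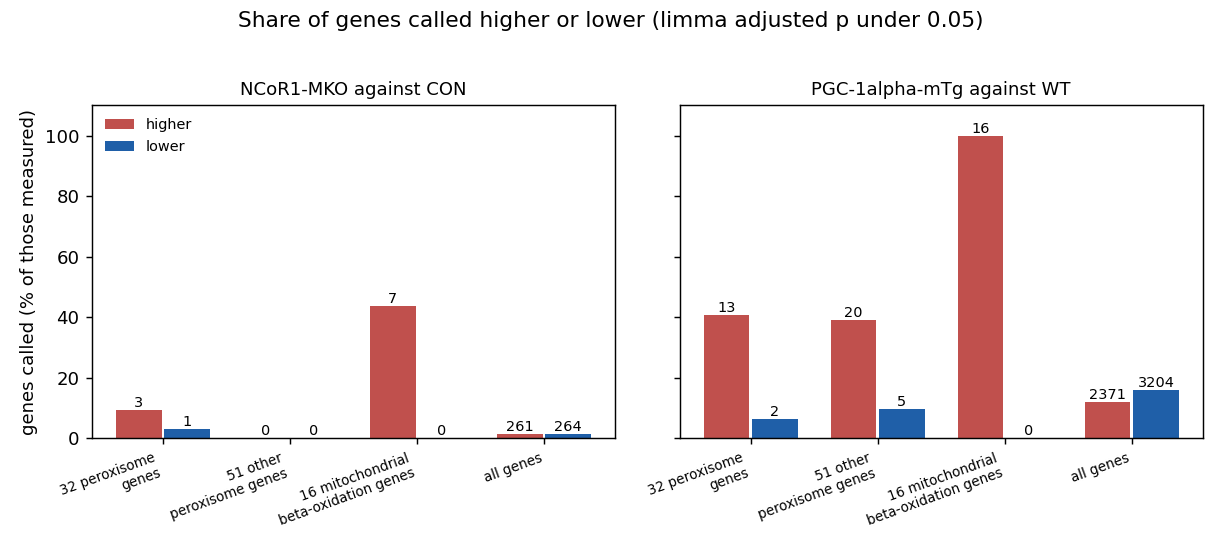
Share of measured genes called higher (red) or lower (blue) at a limma adjusted p under 0.05, in percent on an axis from 0, for the 32 peroxisome genes, 51 other peroxisome genes, 16 mitochondrial beta-oxidation genes and all 19938 genes; the number over each bar counts genes. In PGC-1alpha-mTg the peroxisome bars (40.6 and 39.2 percent higher) stand between all genes (11.9 percent) and the mitochondrial ones (100 percent).

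The receptors and coactivators around these genes also differed between the models. In PGC-1alpha-mTg Ppara rose by 0.49 ± 0.12 (limma adjusted p = 0.00253), Pparg by 0.52 ± 0.08, Rxrb by 0.25 ± 0.05, Esrra by 0.66 ± 0.05 and Esrrb by 1.35 ± 0.08. Rxra (-0.36 ± 0.06) and Rxrg (-0.45 ± 0.06) fell, and Ppard (-0.07 ± 0.05) and Esrrg (0.13 ± 0.06) did not pass. In NCoR1-MKO only Ppargc1b, a relative of Ppargc1a, was called, at 0.51 ± 0.12 (limma adjusted p = 0.0193). Leaving out CON 3, NCoR1-MKO 3 or NCoR1-MKO 4 ended that call (highest limma adjusted p 0.0642). The lowest change of the 12 regulators measured in NCoR1-MKO was -0.59, for a regulator not named here, and it was not called. Of the 12, 3 had a change below 0 with an unadjusted limma p under 0.05, beside 1043 of all 19938 genes. Ppara stood at -0.36 ± 0.12 (adjusted p = 0.127, limma) and was called with the 10 arrays of the comparison alone (adjusted p = 0.0120, limma). Ppard stood at 0.15 ± 0.05 there (limma adjusted p = 0.0816). It was called higher without NCoR1-MKO 5, with quantile normalization, without the dimmest genes and with a trended, robust prior (adjusted p from 0.0464). The difference between the models passed for 10 of the 12 regulators measured. It was above 0 for 4 and below 0 for 6, beside 8.5 percent and 6.66 percent of all genes. The 6 include Ppargc1a, the transgene itself, whose rise in PGC-1alpha-mTg was set by the design. The difference was -0.84 ± 0.16 for Ppara (limma adjusted p = 0.000828) and 0.73 ± 0.17 for Ppargc1b (limma adjusted p = 0.00408).

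Markers of other cells moved in part with these results. Of 8 endothelial markers 6 rose in PGC-1alpha-mTg and 1 in NCoR1-MKO. All 8 estimates were above 0 in both models, at medians of 0.39 in PGC-1alpha-mTg and 0.21 in NCoR1-MKO. The mean of the 8 ran from 8.44 to 8.66 in WT, 8.76 to 8.96 in PGC-1alpha-mTg, 8.70 to 8.98 in CON and 8.92 to 9.38 in NCoR1-MKO. Of 7 adipocyte markers 2 rose in PGC-1alpha-mTg and none in the knockout, with means from 7.25 to 7.79 in WT, 7.54 to 7.99 in PGC-1alpha-mTg, 7.69 to 8.48 in CON and 7.72 to 8.40 in NCoR1-MKO. Of 7 slow-fibre markers 5 fell in PGC-1alpha-mTg and 2 in NCoR1-MKO. All 7 estimates were below 0 in both models, at medians of -0.72 and -0.91, and none passed the test of the difference. Over all genes, 11.9 percent rose and 16.1 percent fell in PGC-1alpha-mTg, and 1.31 percent and 1.32 percent in NCoR1-MKO. Of 7 fibroblast markers 3 fell in PGC-1alpha-mTg and none in the knockout. Of the 9 skeletal muscle markers 4 fell in PGC-1alpha-mTg, where their mean ran from 12.91 to 12.95 against 13.02 to 13.05 in WT. In NCoR1-MKO 1 of the 9 rose, with means of 13.54 to 13.57 against 13.52 to 13.54 in CON. In PGC-1alpha-mTg 1 of 4 Schwann cell markers fell and 1 of 8 macrophage markers rose, and none of either passed in the knockout. No marker is at 0 on this scale, and the part of these cells in the changes above was not tested. In whole muscle a change in the number of cells of a type and a change in RNA per cell cannot be told apart.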

How the data were processed

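The authors deposited RMA expression values on the log2 scale (background correction, quantile normalization, probe summary). RMA and Partek are named per the submitters' processing notes; neither version nor genome build is given in the sources used here. They ran from 2.66 to 14.47 over 35556 probe sets. Quantiles differed by at most 0.0630 between arrays of a cohort and by 0.169 to 0.228 between cohorts, so levels were compared within a cohort only. Per the labels' protocols, 250 ng of RNA was labelled per array. An array has no depth: the 5 arrays per group limit the precision.

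Probe sets with 1 symbol in the platform table (21789) were kept, the brightest per gene, giving 19938 genes with no filter on dim ones. limma 3.58.1 (R 4.3.3) fitted the 4 group means over the 20 arrays together, with two-sided tests and Benjamini-Hochberg adjustment over all genes. The fit was tested on simulated data. The members and lists were chosen with earlier results of these data known. Every member is accounted for; values on each array are given for those called in the knockout or for the difference, the largest changes in the transgenic mice, and the largest change of a role with none called. Up to 5 other peroxisome genes per direction are named by size. Alternatives were other scalings, a filter on dim genes, averaging probe sets of a gene, the 10 arrays of a comparison, trend and robust eBayes, the replicate number as a block and leaving out each array. Leaving out 2 transgenic arrays together was chosen after seeing the data.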

Additional observations from a re-analysis of the deposited data

Results flagged for a closer look

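Among the 32 genes and 4 groups, 128 sets of 5 values were examined for an array far from the others, and 4 were found, where chance gives about 1 in 20. Pex10 read 8.91 on PGC-1alpha-mTg 5 and 8.73 to 8.74 on the other transgenic arrays. Pex26 read 5.74 on PGC-1alpha-mTg 1 against 5.57 to 5.60. Abcd4 read 7.02 on NCoR1-MKO 4 against 6.78 to 6.83, and Hacl1 read 7.30 on CON 1 against 7.49 to 7.57.

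For 12 genes the effect in NCoR1-MKO differed from that in PGC-1alpha-mTg by limma's test of the difference. It was 0.54 for Abcd2. The effect in the knockout was the lower of the pair for Scp2 (-0.96), Phyh (-0.92), Acox3 (-0.51), Pex10 (-0.48), Pex19 (-0.41), Ech1 (-0.39), Hsd17b4 (-0.30), Crot (-0.29), Pex11a (-0.29), Gnpat (-0.25) and Abcd3 (-0.22).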

How the results depend on the processing

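No called change of the 32 genes turned its sign under the alternatives run. With the 10 arrays of the comparison alone, 157 of all genes were called higher in NCoR1-MKO in place of 261. Without PGC-1alpha-mTg 2 and 3 together the 2 members that fell in the transgenic mice became 0, which leaves fewer arrays as well. Over the fits that left out 1 array, members called higher numbered 2 to 4 in the knockout, 13 to 14 in the transgenic mice and 1 to 3 for the difference, and members called lower 1, 2 to 3 and 9 to 12. For all genes the counts in the same order ran from 169 to 312, 2042 to 2886 and 1401 to 2182 higher, and from 192 to 305, 2712 to 3658 and 1178 to 1554 lower. Without PGC-1alpha-mTg 5, 3 members were called above 0 for the difference, and without NCoR1-MKO 1 or 3, 172 and 169 of all genes were called higher in the knockout. The cause of these shifts was not tested. The replicate number as a block took the count of genes called higher in NCoR1-MKO to 154. Under that block limma no longer called Hsd17b4 in the knockout (adjusted p = 0.105), the difference for Pex11a or the fall of Nudt12, and it called Ppara lower in the knockout and Abcd2 lower in PGC-1alpha-mTg (adjusted p = 0.0430). Same-numbered arrays had deviations that correlated at -0.13 to 0.04 (NCoR1-MKO with CON) and -0.23 to 0.20 (PGC-1alpha-mTg with WT), and 0 of 5 and 2 of 5 correlated best with their own number, so the numbers were not taken as a pairing.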

Other observations

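Several genes that did not pass in PGC-1alpha-mTg were lowest on transgenic arrays 2 and 3, the pair that resembled each other most. Pex2 read 7.37 and 7.46 on them and 7.74 to 7.85 on the other 3, and Agps read 6.998 and 7.08 against 7.26 to 7.36. Pex13 read 7.86 and 7.80 there against 7.94 to 8.18. Scp2 and Acox3 were highest on the same arrays, at 8.57 and 8.53, and at 8.38 and 8.37.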
